A study of Mus musculus with 9 samples.

Results

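The 10 genes described here are markers of endothelial cells, the cells that line blood vessels, read out in RNA from cells that were sorted as mammary epithelium. They are Plvap, Emcn, Pecam1, Cdh5, Esam, Cldn5, Kdr, Tie1, Eng and Egfl7, chosen by name among the 23951 gene rows of the table, and each was found in 1 row. The study sequenced 9 libraries of mouse mammary epithelial cells from female mice of mixed genetic background, sorted for a yellow fluorescent protein (YFP) 1 month after intraductal delivery of an adenovirus. The virus, Ad-K8-Cre, drives Cre from a keratin 8 promoter, which is active in luminal cells, so those cells were the target. All mice carried the Cre-dependent reporter Rosa26-Stop-YFP (R26Y). The 3 WT libraries came from mice with the reporter alone, the 3 p53-null libraries from Trp53L/L;R26Y mice, and the 3 p53/Brca1-null libraries from Trp53L/L;Brca1L/L;R26Y mice, where L/L was read as the floxed form of a gene, which Cre deletes. The WT mice received the virus too. Neither the age of the mice nor whether the libraries of a genotype came from separate mice is given in the sources used here, so a p-value here reflects only how these libraries vary, and that variation may be technical.

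Endothelial cells keep the vessel wall closed through adherens and tight junctions, built by adhesion molecules such as VE-cadherin (Cdh5), PECAM-1, ESAM and claudin-5. They sense growth factors through receptors that include VEGFR2 (Kdr), TIE1 and the TGF-beta co-receptor endoglin (Eng). In the mammary gland a dense capillary bed surrounds the ducts and alveoli and supplies milk synthesis, and its cells are not part of the epithelium. Some of these genes are also read in other cells: Pecam1, Esam and Eng occur in blood cell lineages, and Cldn5 occurs in some epithelia.

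The unit was read as FPKM from the values, as the table names none. FPKM divides fragment counts by gene length and by library size, so if that reading holds, levels may be compared between genes. A member stands for 1 of the 10 genes. In bulk RNA, fewer cells of a type and less RNA per cell cannot be told apart.

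Several features of the libraries bear on every value below. FPKM summed to between 359976 and 433880 per library. Read depth is unknown. Spacing of the lowest values gave relative depths from 0.787 (WT replicate 1) to 1.12 (p53/Brca1-null replicate 2), with p53-null replicate 3 set to 1. Genes reaching 1 FPKM numbered from 4839 in WT replicate 1 to 9767 in p53-null replicate 3. WT replicates 1 and 2 stood apart as a pair: of 3998 genes above 2 FPKM in WT replicate 2, and above 0.05 FPKM but under 25% of that level in WT replicate 1, 947 lay in 1 window of 0.2 on the log2 scale around 8.54% of WT replicate 2. With that share subtracted the differences of the tested members barely moved (Plvap in p53-null against WT, 3.61 in place of 3.60 on the log2 scale). They could hardly move, as the members summed to 0.743 FPKM in WT replicate 2. Cldn5, the 1 member above 1 FPKM in WT replicate 1, was 0 there. The median of all tested genes in p53-null against WT moved from 0.58 to 0.72. The number of genes called in p53/Brca1-null against WT also moved, as given at the end. Values without WT replicate 1 are given beside the comparisons with WT for Plvap, Emcn, Pecam1 and Eng. For the other tested members a range over leaving out each library is given, which includes WT replicate 1. The targeted genes did not separate the labelled genotypes. Trp53 lay between 1.35 and 25.5 FPKM in WT, between 0.858 and 55.7 in libraries labelled p53-null and between 1.88 and 26.5 in those labelled p53/Brca1-null, and Brca1 was listed at 0 in 8 of the 9 libraries. Groups are named by their labels throughout. A value of exactly 0 can be a failed estimate, which could not be told from true absence here. Between 537 and 554 genes per library had a median of 100 FPKM or more in the other libraries. Of these, 1 to 4 (0.185% to 0.727%) were listed at 0. Markers of the labelled cell type were present in every library, with none of 14 luminal genes listed at 0 and summed levels of 3934 to 16547 FPKM.

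The promoter sequences are shown first for the member that differed most between genotypes, Egfl7, and, for contrast, for Cldn5, the member whose pattern over libraries was least like the others. Cldn5 was chosen for this after its values were seen. The RefSeq promoter table (GRCm38.p6, not the mm9 build of the expression table) held 6 of the 10 members: Egfl7 with 3 start sites, and Eng, Emcn, Tie1, Kdr and Cldn5 with 1 each. Plvap, Esam, Pecam1 and Cdh5 had no entry. The 250 bases before each start are printed 5′ to 3′ on the plus strand, which is the sense strand of both genes. Capitals mark the core motif of ETS factors, GGAA or its reverse complement TTCC.
Egfl7, upstream start, chr2:26580833-26581082: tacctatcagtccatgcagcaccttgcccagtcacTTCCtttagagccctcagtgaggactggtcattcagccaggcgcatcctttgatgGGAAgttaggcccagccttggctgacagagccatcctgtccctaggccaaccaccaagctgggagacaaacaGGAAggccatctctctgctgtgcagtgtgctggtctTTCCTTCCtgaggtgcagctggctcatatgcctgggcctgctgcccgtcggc
Egfl7, middle start, chr2:26583615-26583864: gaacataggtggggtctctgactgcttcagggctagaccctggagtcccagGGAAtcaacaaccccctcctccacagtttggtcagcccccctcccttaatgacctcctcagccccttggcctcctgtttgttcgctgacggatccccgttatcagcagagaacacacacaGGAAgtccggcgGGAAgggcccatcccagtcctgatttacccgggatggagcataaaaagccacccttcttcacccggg
Egfl7, downstream start, chr2:26586386-26586635: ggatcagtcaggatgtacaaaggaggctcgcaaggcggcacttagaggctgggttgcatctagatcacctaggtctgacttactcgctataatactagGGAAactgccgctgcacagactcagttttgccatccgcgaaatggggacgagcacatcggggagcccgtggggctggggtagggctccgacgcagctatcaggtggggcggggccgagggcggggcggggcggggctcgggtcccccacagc
Cldn5, chr16:18776597-18776846: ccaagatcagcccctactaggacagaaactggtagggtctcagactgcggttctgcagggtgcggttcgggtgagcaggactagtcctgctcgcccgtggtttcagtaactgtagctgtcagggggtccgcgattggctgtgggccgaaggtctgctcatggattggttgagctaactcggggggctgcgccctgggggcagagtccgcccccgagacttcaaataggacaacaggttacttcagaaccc
ETS factors are a family that includes the endothelial regulators Erg and Fli1. The core was found 5, 3 and 1 times before the 3 Egfl7 starts and 0 times before Cldn5. Of the other members, Tie1 had 7 matches, Emcn and Kdr 4 each and Eng 3. The motif is short and was common: 93.4% of all 32851 promoter windows of that length held it on either strand, with a median of 3. At least as many matches as before the 3 Egfl7 starts were held by 18%, 54.7% and 93.4% of windows. That share was 33.4% for Emcn and Kdr, 54.7% for Eng and 3.82% for Tie1. The 250 bases before these 8 starts held no match on either strand to the motif AGATAA of the GATA family, the forkhead motif TGTTTAC or the promoter element TATAAA, which stood in 9.99%, 3.17% and 12.4% of all windows, so no match overlapped another motif. These counts describe letters and were not tested against the expression values.

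Endothelial genes were unevenly spread over the libraries. Summed over the 10 members, the level was 137.6, 0.743 and 157.1 FPKM in WT replicates 1, 2 and 3. It was 630.0, 35.9 and 129.7 FPKM over p53-null and 77.5, 206.3 and 59.7 FPKM over p53/Brca1-null. The library p53-null replicate 1 was thus the highest library and WT replicate 2 the lowest, and the 3 genotypes overlapped. In WT replicate 1 Cldn5 made up 99.96% of the sum. At 1 FPKM or more, 1, 0 and 6 members were found over the WT replicates, 10, 6 and 9 over p53-null and 5, 8 and 6 over p53/Brca1-null. Of all gene rows, 20.2%, 30.6% and 25.5% reached that level over the WT replicates. The shares were 26.2%, 38.2% and 40.8% over p53-null and 30.6%, 34.3% and 31.2% over p53/Brca1-null. Member values of exactly 0 numbered 12 for WT, 0 for p53-null and 7 for p53/Brca1-null. The share of values at 0 over all genes is not given here, so this split is not read as particular to the members. The library p53-null replicate 1 held the highest value of 8 members, all but Cldn5 and Cdh5.

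**Figure D1:**
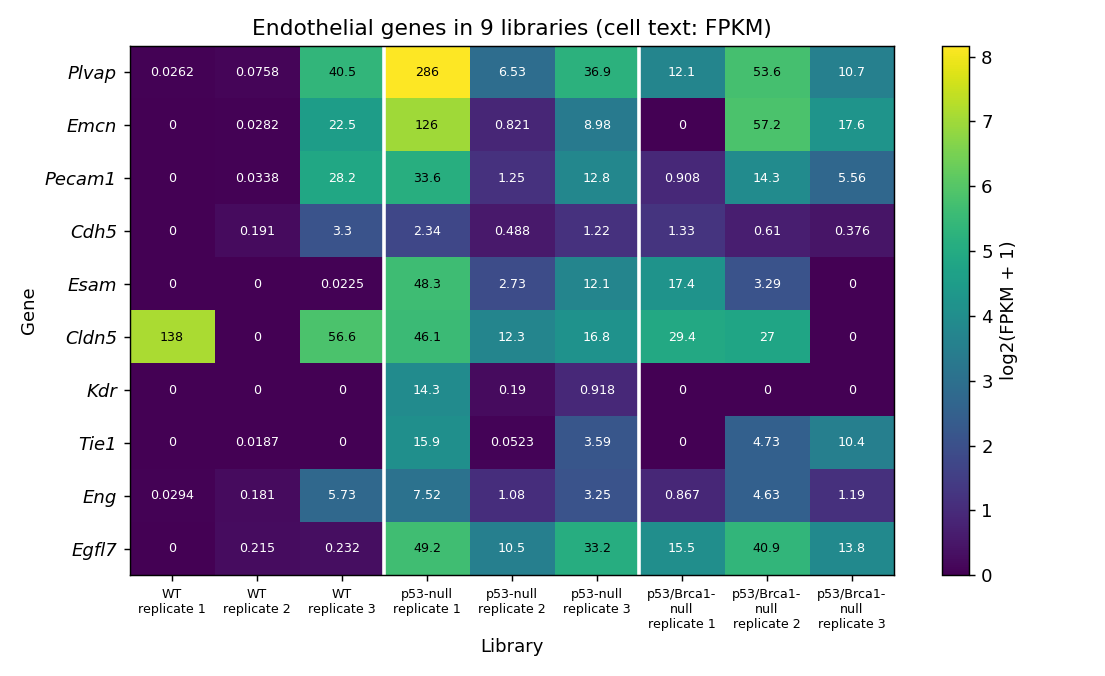
Level of each of the 10 endothelial genes (rows) in each library (columns), coloured by log2(FPKM + 1), with the FPKM value written in the cell. The column of p53-null replicate 1 is bright in most rows, WT replicates 1 and 2 are dark except for Cldn5 at 138 FPKM in WT replicate 1, and WT replicate 3 is bright for some genes and dark for Esam, Kdr, Tie1 and Egfl7.

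Ordered by their median over the 9 libraries, the members ran from Cldn5 (27.0 FPKM), Egfl7 (13.8), Plvap (12.1), Emcn (8.98) and Pecam1 (5.56) down to Esam (2.73), Eng (1.19), Cdh5 (0.610), Tie1 (0.0523) and Kdr (0). Every pair of neighbours in that order overlapped in range. Within genotypes the order changed. Plvap led in p53-null, with a median of 36.9 FPKM, and Cldn5 led in WT and p53/Brca1-null, with medians of 56.7 and 27.0 FPKM. Neighbours overlapped there as well, except Cdh5 and Kdr in p53/Brca1-null.

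Surface proteins of the luminal face come first. Plvap, which forms the diaphragms of fenestrated capillaries and caveolae, stood at 0.0262, 0.0758 and 40.5 FPKM over the WT replicates, at 286, 6.53 and 36.9 over p53-null and at 12.1, 53.6 and 10.7 over p53/Brca1-null. It was near 0 in WT replicates 1 and 2 only, and the third WT library lay within the range of either null genotype. Emcn, endomucin, a sialomucin of capillary and venous endothelium, stood at 0, 0.0282 and 22.5 FPKM over the WT replicates, 126, 0.821 and 8.98 over p53-null and 0, 57.2 and 17.6 over p53/Brca1-null. Its low libraries thus included 1 in each null genotype, and all 3 groups overlapped.

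Junction and adhesion genes differed among themselves. Pecam1, an adhesion molecule at cell borders, stood at 0, 0.0338 and 28.2 FPKM over the WT replicates, 33.6, 1.25 and 12.8 over p53-null and 0.908, 14.3 and 5.56 over p53/Brca1-null. It followed Plvap in having WT replicate 3 as the 1 WT library above 1 FPKM. Cdh5, the adherens junction cadherin of endothelium, was low everywhere, at 0, 0.191 and 3.30 FPKM over the WT replicates, 2.34, 0.488 and 1.22 over p53-null and 1.33, 0.610 and 0.376 over p53/Brca1-null. Its highest value was in WT replicate 3.

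Esam, a junctional immunoglobulin-like molecule, had a different WT pattern. It stood at 0, 0 and 0.0225 FPKM over the WT replicates, 48.3, 2.73 and 12.1 over p53-null and 17.4, 3.29 and 0 over p53/Brca1-null. Every p53-null library lay above every WT library, while p53/Brca1-null overlapped WT through replicate 3. Cldn5, the tight junction claudin of endothelium, stood at 137.5, 0 and 56.7 FPKM over the WT replicates, 46.1, 12.3 and 16.8 over p53-null and 29.4, 27.0 and 0 over p53/Brca1-null. Cldn5 was therefore highest in WT replicate 1, where the next highest member was Eng at 0.0294 FPKM, and at 0 in WT replicate 2 and p53/Brca1-null replicate 3.

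Receptors were mostly low. Kdr, the main signalling receptor for VEGF-A, was listed at 0 in all 3 WT and all 3 p53/Brca1-null libraries and stood at 14.3, 0.190 and 0.918 FPKM over p53-null. Only p53-null replicate 1 was above 1 FPKM, so Kdr did not pass the filter for the test across genes. Tie1, an orphan receptor that modulates angiopoietin signalling, stood at 0, 0.0187 and 0 FPKM over the WT replicates, 15.9, 0.0523 and 3.59 over p53-null and 0, 4.73 and 10.4 over p53/Brca1-null. Both null genotypes held a library near 0, and the lowest p53-null library lay above the highest WT library by 0.0523 against 0.0187 FPKM. Eng, a co-receptor for TGF-beta and BMP ligands, stood at 0.0294, 0.181 and 5.73 FPKM over the WT replicates, 7.52, 1.08 and 3.25 over p53-null and 0.867, 4.63 and 1.19 over p53/Brca1-null. Its 2 lowest libraries were WT replicates 1 and 2, and all 3 groups overlapped.

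Egfl7, a secreted factor laid down around growing vessels, separated WT from both null genotypes. It stood at 0, 0.215 and 0.232 FPKM over the WT replicates, 49.2, 10.5 and 33.2 over p53-null and 15.5, 40.9 and 13.8 over p53/Brca1-null. No library of either null genotype was as low as any WT library, and the null genotypes overlapped each other. Egfl7 was low even in WT replicate 3, where Plvap, Emcn and Pecam1 were not. There Egfl7 was at 0.573% of the Plvap level, against 17.2% to 160.9% in the 6 null libraries. Pecam1 in WT replicate 3 was at 69.6% of Plvap, above its 7.53% to 51.9% in the null libraries.

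**Figure D2:**
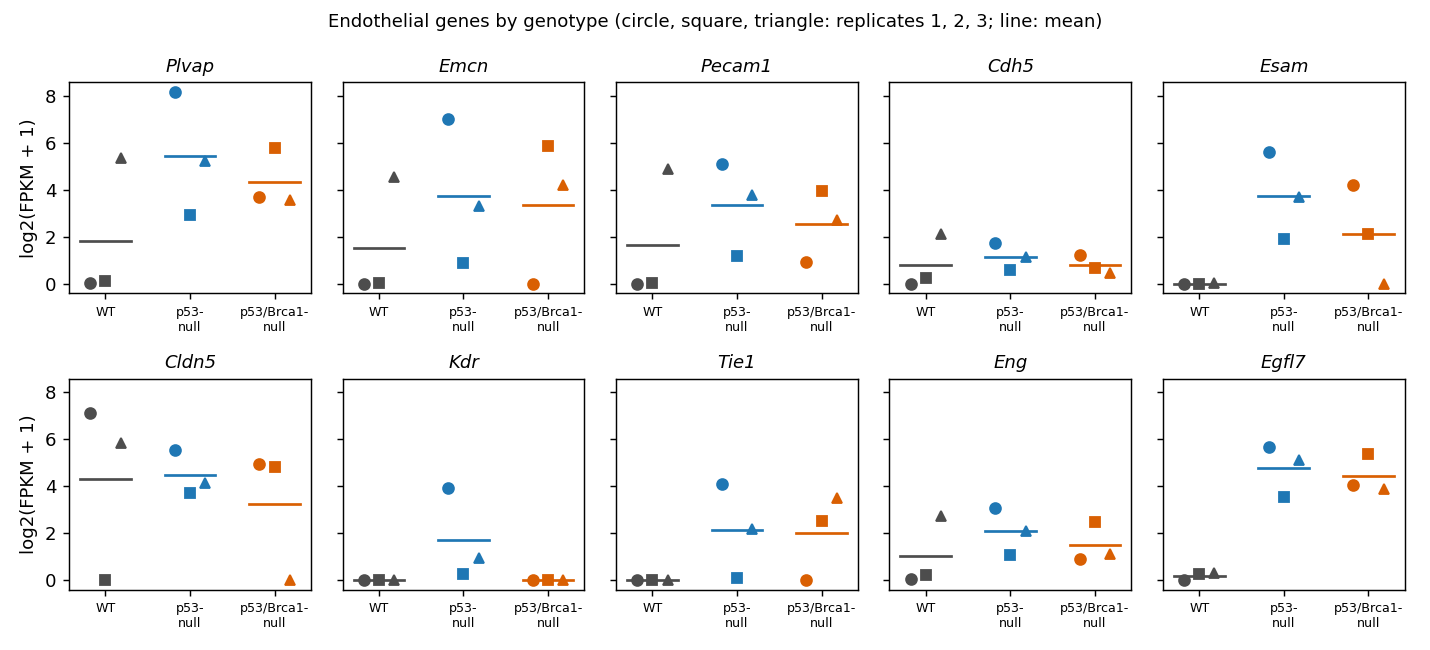
Level of each endothelial gene on the log2(FPKM + 1) scale (vertical axis) by genotype (horizontal axis), with a circle, square and triangle for replicates 1, 2 and 3 and a line at the mean. Egfl7 is the panel in which all WT points lie below all points of both null genotypes. In the Plvap, Emcn, Pecam1, Cdh5 and Eng panels the WT triangle, replicate 3, lies within the range of the null libraries or, for Cdh5, above it.

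The libraries labelled p53-null were compared first with those labelled WT. Differences were fitted by limma on log2(FPKM + 1) over the 9503 genes that reached 1 FPKM in 3 or more libraries, which 9 of the 10 members passed, and p-values were adjusted over all 9503 genes. No member passed at an adjusted p of 0.05, against 1 of all tested genes (0.0105%). Egfl7 had the largest difference, 4.56 ± 0.96 (SE) on the log2 scale, with all 3 p53-null libraries above all 3 WT libraries (limma adjusted p = 0.112; unadjusted p = 0.000209). Its adjusted p was 0.0444 without the intensity trend and robust moderation and 0.0486 with a pseudocount of 0.1. Esam differed by 3.73 ± 1.17 (limma adjusted p = 0.217) and Plvap by 3.60 ± 1.46 (limma adjusted p = 0.352). These 3 had an unadjusted p under 0.05, all toward p53-null, as had 10.8% of all tested genes in that direction.

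Differences of the other members were smaller or more uncertain. They were 2.19 ± 1.69 for Emcn, 2.11 ± 1.10 for Tie1, 1.72 ± 1.39 for Pecam1, 1.07 ± 0.99 for Eng, 0.37 ± 0.74 for Cdh5 and 0.16 ± 1.59 for Cldn5, with limma adjusted p from 0.462 to 0.982. Quantile normalization turned the sign of the Cdh5 and Cldn5 differences. Cldn5 differed by -2.001 without WT replicate 2 and by -0.38 without p53-null replicate 1, and Cdh5 by -0.022 without WT replicate 1. Kdr differed by 1.71 on the log2 scale, with an exact permutation p of 0.1 (two-sided), the smallest that 3 libraries against 3 can give. All 10 differences were positive, with a median of 1.91, and 70.2% of all tested genes were positive too, with a median of 0.58. Without p53-null replicate 1 the median of the 9 tested members fell from 2.11 to 0.84, beside 0.82 for all tested genes. Every p53-null library lay above every WT library for 4 of 10 members (Egfl7, Esam, Kdr and Tie1). Kdr was outside the tested genes, of which 14.1% lay apart in that way. The lowest p53-null value was 0.190 FPKM for Kdr and 0.0523 for Tie1, against a highest WT value of 0 and 0.0187. The median of all tested genes moved from 0.58 to -0.04 under quantile normalization. Without p53-null replicate 1, the library highest in endothelial genes, the difference was 4.12 for Egfl7, 2.79 for Esam and 2.24 for Plvap (limma adjusted p = 0.2203, 0.319 and 0.559). Without WT replicate 3, Plvap differed by 5.37 (limma adjusted p = 0.109), Emcn by 3.71, Pecam1 by 3.33 and Eng by 1.94. Without WT replicate 1 these 4 differed by 2.70, 1.43, 0.90 and 0.58, and without WT replicate 2 by 2.74, 1.45, 0.92 and 0.68. Leaving out p53-null replicate 1 gave 0.56 for Emcn, 0.84 for Pecam1, 0.56 for Eng and 1.13 for Tie1. Leaving out p53-null replicate 2 gave 3.63, 2.81, 1.58 and 3.13. Over leaving out each library in turn, Egfl7 differed by 4.12 to 5.18 (limma adjusted p from 0.0848 to 0.426). In the same way Esam differed by 2.79 to 4.66 and Tie1 by 1.13 to 3.13.

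The libraries labelled p53/Brca1-null were set against the same WT libraries. Again no member passed, against 24 of all tested genes (0.253%). Egfl7 was higher in p53/Brca1-null by 4.25 ± 0.96 on the log2 scale (limma adjusted p = 0.0734; unadjusted p = 0.000415), and was the 1 member whose p53/Brca1-null libraries all lay above WT, as did 12.7% of all tested genes. Its adjusted p was 0.0399 without the trend and robust moderation and 0.0317 with a pseudocount of 0.1, and 0.127 with the share of WT replicate 2 subtracted from WT replicate 1. It was also the 1 member with an unadjusted p under 0.05, against 10.1% of all tested genes in that direction.

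For the rest of the members the difference from WT was 2.503 ± 1.46 for Plvap, 2.09 ± 1.17 for Esam, 2.002 ± 1.10 for Tie1 and 1.83 ± 1.69 for Emcn. It was 0.89 ± 1.39 for Pecam1, 0.50 ± 0.99 for Eng, 0.0039 ± 0.74 for Cdh5 and -1.08 ± 1.59 for Cldn5. Limma adjusted p for these 8 ran from 0.475 to 1.00. Leaving out WT replicate 3 raised Plvap to 4.27, Emcn to 3.34, Pecam1 to 2.504 and Eng to 1.37. Leaving out WT replicate 1 lowered them to 1.60, 1.06, 0.071 and 0.013, and leaving out WT replicate 2 to 1.64, 1.08, 0.095 and 0.11. Without p53/Brca1-null replicate 1, Esam stood at 1.04, Tie1 at 3.01, Emcn at 3.51, Pecam1 at 1.69 and Eng at 0.80. Without p53/Brca1-null replicate 2, Emcn stood at 0.58, Pecam1 at 0.19 and Eng at 0.0062, and without replicate 3, Esam stood at 3.14 and Tie1 at 1.25. Cldn5 changed sign without WT replicate 1 (0.32) and without p53/Brca1-null replicate 3 (0.55). With quantile normalization Cdh5 and Eng changed sign, to -0.34 and -0.00053. Over leaving out each library in turn, Egfl7 differed by 3.77 to 4.52 (limma adjusted p from 0.0631 to 0.278). In the same way Esam differed by 1.04 to 3.14 and Tie1 by 1.25 to 3.01. Kdr was listed at 0 in both groups. Positive differences were found for 8 of the 10 members, with a median of 1.36, and for 63.6% of all tested genes, with a median of 0.41.

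The libraries labelled p53/Brca1-null were then set against those labelled p53-null. By limma no member and no other gene passed (0%), and no member had an unadjusted p under 0.05, which 4.74% of all tested genes had. All 10 members were lower in p53/Brca1-null, with a median of -0.70 on the log2 scale, where the median of all tested genes was -0.16 and 42.9% of them were positive. Of these, Esam differed by -1.64 ± 1.17, Cldn5 by -1.24 ± 1.59 and Plvap by -1.10 ± 1.46, and Egfl7 by -0.32 ± 0.96 (limma adjusted p = 0.999 for each). The direction of several members rested on 1 library. Without p53-null replicate 1, Plvap, Egfl7, Pecam1, Tie1 and Emcn were higher in p53/Brca1-null, by 0.26, 0.13, 0.05, 0.88 and 1.27. Without p53/Brca1-null replicate 1, Tie1 and Emcn were higher there by 0.90 and 1.32, and without p53/Brca1-null replicate 3, Cldn5 was higher by 0.39. Quantile normalization and array weights also turned the sign of Tie1 and Emcn. Kdr, the member whose p53/Brca1-null libraries all lay below p53-null, had an exact permutation p of 0.1 (two-sided), as low as 3 against 3 allows. For 8.02% of all tested genes, which leave Kdr out, the groups were apart in that direction.

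**Figure D3:**
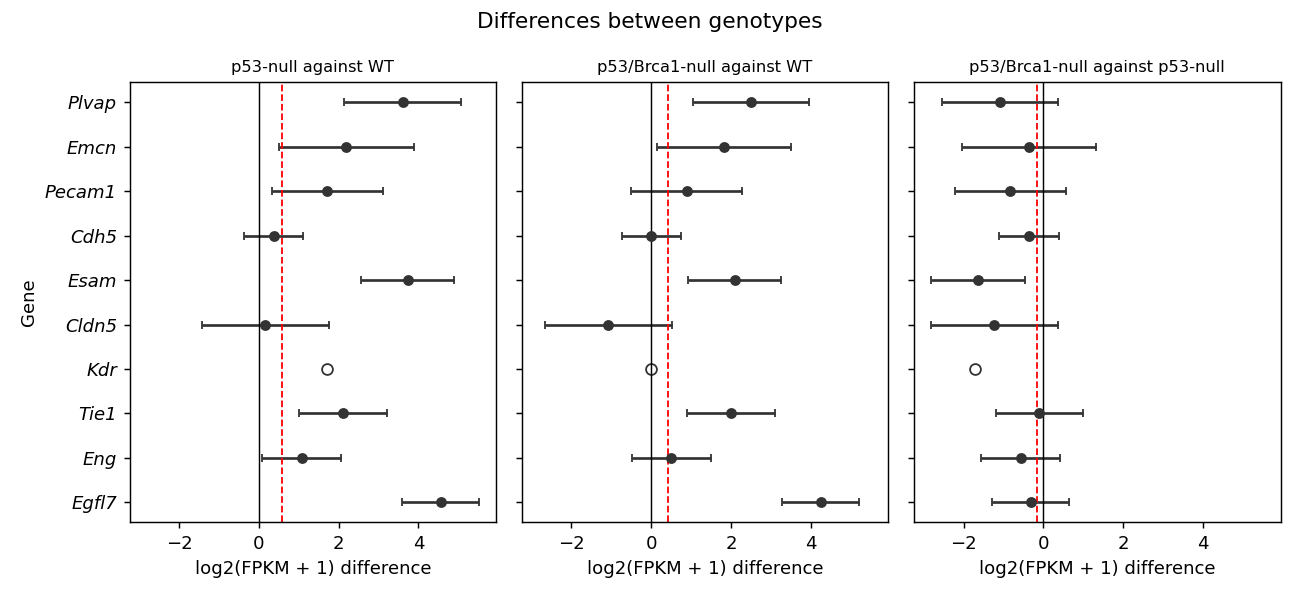
Difference in log2(FPKM + 1) between genotypes for each endothelial gene (rows) in the 3 comparisons (panels), with SE bars from limma, an open circle with no bar for Kdr, which was outside the limma fit, and a dashed line at the median of all tested genes. Egfl7 stands at 4.56 and 4.25 in the comparisons with WT and at -0.32 between the null genotypes.

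How alike the members were over libraries was described by correlating each with the mean standardized log2 level of the other tested members, over the same 9 libraries. Pearson's r was 0.987 for Plvap, 0.922 for Eng, 0.887 for Pecam1 and 0.832 for Emcn. It was lower for Cdh5 (0.678), Egfl7 (0.649), Esam (0.617) and Tie1 (0.610), and 0.234 for Cldn5. Plvap thus followed the average of the group most closely and Cldn5 least.

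The genes outside the list with the most similar pattern were ranked by r with the mean of all 9 tested members. The leading 8 of 9494 were Slc16a1, Upp1, Igfbp7, Krt23, Wdr37, Hs6st1, Gpihbp1 and Rad17, with r from 0.921 to 0.973. Igfbp7, a secreted binding protein abundant in vessels, had r = 0.935 and Spearman's rho = 0.967, at 1.35, 4.47 and 77.6 FPKM over the WT replicates, 409, 44.7 and 154 over p53-null and 49.4, 299 and 49.8 over p53/Brca1-null. Gpihbp1, which anchors lipoprotein lipase on capillary endothelium, stood at 0, 0 and 68.5 FPKM over the WT replicates, 70.8, 8.52 and 21.2 over p53-null and 10.8, 48.7 and 13.6 over p53/Brca1-null (r = 0.921). Slc16a1, a monocarboxylate transporter gene, had the highest r at 0.973, with a top level of 13.4 FPKM. Krt23, a keratin gene, had r = 0.931, with a top level of 46.6 FPKM in p53-null replicate 1. Of the 8, only Gpihbp1 was on the wider endothelial list described next. Such values were picked from many genes and carry no test.

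A wider list of 85 endothelial genes, of which 84 were in the table and 59 were tested, was followed for the same libraries. By limma none passed in any comparison. At an unadjusted p under 0.05, 13 of the 59 were higher and 0 lower in p53-null than in WT. In p53/Brca1-null 8 of the 59 were higher than in WT and 0 lower. Set against p53-null, p53/Brca1-null had 2 of the 59 higher and 2 lower. Of all 9503 tested genes, 1022 (10.8%) were higher by the same rule in the first of these comparisons and 964 (10.1%) in the next. There 70.2% and 63.6% of all tested genes were positive, and the share lower by this rule is not given here. In p53/Brca1-null against p53-null, 450 (4.74%) differed in either direction. The medians over all 84, which include genes that failed the filter, were 0.68, 0.46 and -0.23 on the log2 scale. Medians were 0.58, 0.41 and -0.16 over all tested genes, and 0.29, 0.11 and -0.063 with no filter. Tested listed genes in p53-null against WT had medians of 0.70 (receptors and ligands) and 0.91 (transcription factors). Medians were 1.86 for surface, junction and secreted genes and 1.03 for capillary lipid handling. In that order, p53/Brca1-null against WT gave 0.58, 0.18, 1.44 and 0.49. Between the null genotypes they were -0.28, -0.68, -0.81 and -0.77. With the mean of the 9 tested members, r was over 0.7 for 21 of the 59 (35.6%). It was over 0.7 for 398 of the 9494 tested genes outside the 10 members (4.19%), these 59 included. The wider list was chosen with earlier results of these data known, so these shares describe it and carry no test.

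Transcription factors of endothelium were among them. Lmo2, a bridging factor of blood and endothelial development, stood at 0, 0 and 0.0282 FPKM over the WT replicates, 26.7, 9.30 and 11.2 over p53-null and 10.1, 15.1 and 6.85 over p53/Brca1-null. Like Egfl7 it was near 0 in all WT libraries, with differences of 3.91 ± 0.92 and 3.47 ± 0.92 (limma adjusted p = 0.130 and 0.122). Sox7 and Sox17, SOX factors of vessel identity, were at or near 0 in all 3 WT libraries and at 18.3, 3.11 and 2.76 FPKM and 7.55, 2.32 and 4.38 FPKM over p53-null. In p53/Brca1-null Sox7 stood at 6.04, 9.08 and 0.623 FPKM and Sox17 at 0, 5.30 and 0. Erg, an ETS factor that marks endothelium, was listed at 0 in 8 of the libraries and stood at 0.0743 FPKM in p53-null replicate 3 (it is named here after its values were seen).

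Surface and secreted genes had their highest values in different libraries. Ackr1, a chemokine-binding receptor of venules, and Selp, P-selectin, were highest in p53-null replicate 1, at 577 and 498 FPKM. Vwf, von Willebrand factor, was highest in WT replicate 3, at 12.2 FPKM, and stood at 1.10 FPKM in p53-null replicate 1. These 3 are named after their values were seen. Sele, E-selectin, which captures leukocytes on inflamed vessels, stood at 0, 0.0127 and 0 FPKM over the WT replicates, 140.7, 6.60 and 15.5 over p53-null and 0, 4.24 and 0 over p53/Brca1-null. All 3 p53-null libraries lay above all others, with a difference of 4.70 ± 1.12 from WT (limma adjusted p = 0.134) and of -3.91 ± 1.12 between p53/Brca1-null and p53-null (limma adjusted p = 0.462). Procr, the endothelial protein C receptor, stood at 0.292, 0.793 and 46.4 FPKM over the WT replicates, 174.9, 48.8 and 83.3 over p53-null and 13.5, 131.8 and 12.0 over p53/Brca1-null. Icam2, an adhesion molecule of endothelium and leukocytes, stood at 0.0506, 0.880 and 0 FPKM over the WT replicates, 0, 0.328 and 6.82 over p53-null and 10.3, 18.2 and 13.9 over p53/Brca1-null, the 3 highest libraries.

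Among receptors and ligands, Nrp1, a VEGF and semaphorin co-receptor, stood at 0, 0.0300 and 0 FPKM over the WT replicates, 5.67, 0.242 and 5.197 over p53-null and 1.91, 4.41 and 12.5 over p53/Brca1-null. Genes of capillary lipid handling had the highest sum of the 4 groups of this wider list, except in WT replicate 2. Fabp4, a fatty acid binding protein gene that adipocytes and macrophages also express, made up most of it, with 1091 FPKM in WT replicate 1, 1566 in WT replicate 3 and 5145 in p53-null replicate 1. The summed level was 1324, 205.0 and 1816 FPKM over the WT replicates, 5957, 761.9 and 1117 over p53-null and 429.8, 1875 and 733.4 over p53/Brca1-null. Rgcc, a cell cycle regulator high in capillaries, differed by 3.06 ± 1.00 in p53-null (limma adjusted p = 0.237).

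Of 10 VEGF, angiopoietin and other ligand genes, 6 were tested and none passed by limma in any comparison. Vegfb, a ligand of VEGFR1, stood at 0, 0 and 0.0760 FPKM over the WT replicates, 0.628, 10.9 and 12.7 over p53-null and 12.7, 13.8 and 25.7 over p53/Brca1-null. It differed from WT by 2.65 ± 1.014 in libraries labelled p53-null and by 4.10 ± 1.014 in those labelled p53/Brca1-null (limma adjusted p = 0.321 and 0.0917). Cxcl12, a chemokine ligand, stood at 111.9, 32.0 and 26.0 FPKM over the WT replicates, 21.4, 10.01 and 9.54 over p53-null and 0.162, 11.6 and 1.36 over p53/Brca1-null. Vegfc, a lymphangiogenic ligand, was 0.933, 11.4 and 23.8 FPKM over the WT replicates, 9.63, 3.69 and 2.76 over p53-null and 0 in all 3 p53/Brca1-null libraries.

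Marker lists of other cells were read in the same libraries. The library p53-null replicate 1, with the highest endothelial sum, had the lowest luminal epithelial sum (3934 FPKM) and the highest mural cell sum (634.4 FPKM, most of it Acta2 at 475 FPKM, which is also a myoepithelial gene). It also had the highest adipocyte sum, 209.9 FPKM. The adipocyte genes Plin1 and Lep were listed at 0 in every library, and Adipoq in every library but p53/Brca1-null replicate 2. In p53-null replicate 1, 8 of the 15 mural genes were listed at 0, within the range of 2 to 9 over all libraries. The pericyte gene Cspg4 was listed at 0 in every library, and Pdgfrb was at most 0.534 FPKM. Rgs5, another pericyte gene, had its highest level in p53-null replicate 1, at 17.0 FPKM. The basal and myoepithelial sum of that library, 1547 FPKM, was the highest too, against 326.3 to 1342 FPKM elsewhere. The fibroblast sum was highest in p53/Brca1-null replicate 2 (659.8 FPKM), the library with the next highest endothelial sum, against 67.0 to 200.8 FPKM elsewhere. The library p53-null replicate 2, with the lowest endothelial sum of the null libraries, had the highest luminal sum (16547 FPKM). Haematopoietic sums ran from 2485 to 7153 FPKM for WT, 2644 to 5450 for p53-null and 7621 to 12120 for p53/Brca1-null. In that list H2-Aa, an MHC class II gene, was higher in p53/Brca1-null than in WT (2.05 ± 0.32, limma adjusted p = 0.0105), as was the platelet and macrophage chemokine gene Pf4 of the platelet list (4.03 ± 0.73, limma adjusted p = 0.0370). Of the defining platelet genes, Gp9 was listed at 0 in every library and Itga2b was at most 0.737 FPKM. The part of other cell types in the endothelial differences was not tested.

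The mean log2 level of the 10 members had Pearson's r = 0.142 with the count of genes reaching 1 FPKM over the 9 libraries (exact permutation p = 0.719) and Spearman's rho = 0.2 (exact permutation p = 0.613). Without WT replicate 1 and p53-null replicate 3, the libraries farthest from the median number, r was -0.369 (exact permutation p = 0.415). This was the 1 relation tested.

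**Figure D4:**
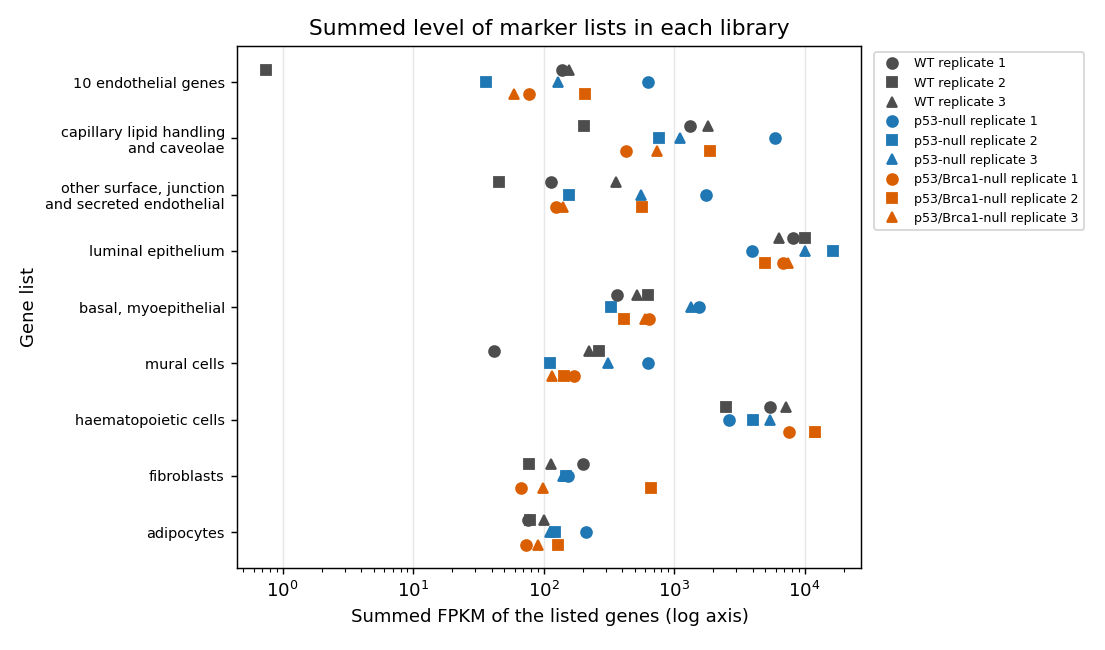
Summed FPKM (horizontal log axis) of the 10 endothelial genes and of 8 marker lists (rows) in each library, coloured by genotype with a circle, square and triangle for replicates 1, 2 and 3. The blue circle, p53-null replicate 1, is the highest point in the endothelial row at 630.0 FPKM and the lowest in the luminal row at 3934 FPKM.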

How the data were processed

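RNA from YFP-positive mammary cells, extracted with Trizol and made into libraries with a low-input SMARTer v4 kit per the labels' protocols, was measured in 9 libraries. The deposited table holds 1 column per library in a unit its header does not name. It was read as FPKM from its values, as the authors deposited them: not whole, with sums that differed and low-value steps that depended on the gene. The build is mm9 per the submitters' processing notes; for the aligner, the counter and the annotation the answer is "not given in the sources used here". Of 24043 rows, 92 spike-in rows were left out, and 27 names that read as dates were kept as given. Low-input amplification can turn low values into 0.

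Genotypes were compared with limma 3.58.1 in R 4.3.3 (trend and robust moderation) on log2(FPKM + 1), which understates changes of low genes, over genes that reached 1 FPKM in 3 or more libraries. All 9 libraries shared 1 estimate of the spread, and p-values were adjusted by Benjamini-Hochberg, called at 0.05. The script was tested on simulated data with planted changes of 6 on the log2 scale, larger than any member difference in the main fit. That check does not show how often smaller changes would be found. Kdr was tested by exact permutation. The members and lists were chosen with earlier results of these data known. Named from each list were up to 3 tested genes with the smallest unadjusted p, and 8 genes of like pattern. Alternatives were the replicate block, the 6 libraries compared alone, limma without its trend and robust options, quantile normalization, filters, pseudocount, array weights, detected genes as covariate and leaving out each library. Subtracting the share of WT replicate 2 was added after seeing the data.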

Additional observations from a re-analysis of the deposited data

How the results depend on the processing

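No member passed in any comparison except Egfl7, which passed against WT in both null genotypes without trend and robust moderation and with a pseudocount of 0.1 (1 member called in each), over adjusted p ranges of 0.0444 to 0.426 and 0.0317 to 0.278. Of all tested genes, 1 was called in p53-null against WT. That count was 0 with the 6 libraries alone and with the covariate, 42 without the trend and robust options together, 17 with the pseudocount of 0.1, 2 with array weights, and 0 to 8 leaving out 1 library (0 without p53-null replicate 1 or 3, 2, 5 and 8 without WT replicates 1, 2 and 3). In p53/Brca1-null against WT the count of 24 became 14 with the replicate block, 7 with 6 libraries, 78 without trend and robust options, 45 with quantile normalization, 56 with the pseudocount, 4 with the covariate, 6 with the subtraction, and 3 to 73 leaving out 1 library (73 when WT replicate 3 was dropped, 8 or 12 when p53-null replicate 2 or 3 was, and 6, 3 or 7 when p53/Brca1-null replicate 1, 2 or 3 was). Between the null genotypes the count of 0 became 1 with 6 libraries and 19 with array weights. The causes were not tested. The median change of tested members in p53-null against WT was 3.95 with the pseudocount, against 2.11, and 0.84 to 3.33 leaving out 1 library. In p53/Brca1-null against WT that range was 0.58 to 2.10, and between the null genotypes -1.61 to 0.049.

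The sign changed for several members. Against WT in p53-null, quantile normalization gave -0.22 for Cdh5 and -0.11 for Cldn5. In p53/Brca1-null it gave -0.34 for Cdh5 and -0.00053 for Eng; array weights gave -0.011 for Cdh5 and 0.28 for Cldn5, and the covariate 0.62 for Cldn5. Between the null genotypes quantile normalization gave 0.081 for Tie1 and 0.0073 for Emcn, and array weights 0.29 and 0.96. Leaving out 1 library gave, in p53-null against WT, -0.022 to 1.03 for Cdh5 and -2.001 to 1.56 for Cldn5, and in p53/Brca1-null against WT -0.39 to 0.66 for Cdh5 and -3.24 to 0.55 for Cldn5. Between the null genotypes it gave -2.36 to 0.26 for Plvap, -0.93 to 0.13 for Egfl7, -1.92 to 0.049 for Pecam1, -1.13 to 0.90 for Tie1, -1.80 to 1.32 for Emcn and -2.08 to 0.39 for Cldn5. The correlation with detected genes was -0.369 without the 2 farthest libraries. Same-numbered libraries of different genotypes had correlations of deviations from -0.083 to 0.0559, none of 9 pairs over 0.1. For the 18 other pairs the range was -0.0638 to 0.0785. With 3 libraries per genotype this check cannot exclude a pairing, and the labels do not say that the numbers pair libraries. The replicate block called 0 members in each comparison. Depth per library is unknown, so no counting interval is given, and values near 0 cannot be told from undetected.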
